A study of Xenopus tropicalis with 9 samples.

Results

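The genes described here are the fibroblast growth factor (FGF) ligands, their receptors and the feedback regulators of FGF signalling in *Xenopus tropicalis*, a frog whose eggs develop outside the mother. Members were chosen by name from the deposited expression table: genes called *fgf* with a number, *fgfr*, *spry1* to *spry4*, *spred*, *dusp* with a number, *etv4*, *il17rd* and *flrt3*, which gave 60 of the 15288 genes in the table. The rule goes by name and uses no measured value. A further gene of the rule, *etv5*, was not analysed here. By role, the 60 members were 16 secreted FGFs, 4 intracellular FGFs, 5 receptors, 8 inhibitors of the relay inside the cell, 10 phosphatases of mitogen-activated protein (MAP) kinases, 13 atypical dual-specificity phosphatases, *etv4*, *flrt3* and 2 genes that only carry a receptor in their name.

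The libraries came from outbred animals: fully grown oocytes freed from their follicles with collagenase, and untreated whole embryos, from in vitro fertilization after the parents were primed with human chorionic gonadotropin, at Nieuwkoop-Faber stages 6 (early blastula), 9 (late blastula), 12 (gastrula), 16 (neurula) and 30 (early larva). PolyA-selected libraries (PA) covered all 6 of these points, and libraries of total RNA depleted of ribosomal RNA (RiboZero, RZ) covered the oocyte and stages 6 and 9. The RNA of 3 biological replicates went into each library as a pool, so every condition is 1 library, no value has a replicate error, and none of the differences below was tested. Whole embryos were sequenced, so fewer cells that express a gene and less RNA per cell cannot be told apart.

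FGFs are secreted proteins that bind receptor tyrosine kinases together with heparan sulfate. The receptors pass the signal through adaptor proteins, Ras and Raf to the MAP kinase ERK, and ERK switches on target genes through ETS transcription factors. Many targets are inhibitors of the same relay, such as Sprouty proteins, Spred proteins, Sef (*il17rd*) and the ERK phosphatase *dusp6*, so their RNA is widely used as a readout of FGF signalling. In frog embryos FGF signalling is known for forming and maintaining mesoderm and for patterning the posterior body and the nervous system.

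Values are RPKM, reads of a gene scaled to the length of its exons and to the mapped reads of the library, so levels of different genes can be set side by side per length. PA and RZ values are shares of different RNA pools, so only their ratio relative to other genes is read. Mapped reads ran between 13422643 in the PA library of stage 9 and 44490754 in that of stage 6, which puts 3 reads on 1 kb of exon at 0.224 and 0.0674 RPKM in these libraries. The median of 6640 genes with at least 1 RPKM in every library lay at 18.99 (oocyte), 8.16 (stage 6), 21.2 (stage 9), 8.12 (stage 12), 9.34 (stage 16) and 9.96 RPKM (stage 30) in PA, and at 16.07 (oocyte), 12.16 (stage 6) and 17.13 RPKM (stage 9) in RZ. Steps into and out of the PA stage 9 library are therefore also given after each library was divided by its median (equal medians). Markers of oocyte, late blastula, gastrula and neurula were all at 1 RPKM or more in the PA libraries with those labels. So were 5 of 6 early larva markers, while *crygb* was listed at 0 in every library. Not all lists were highest at their own stage. Oocyte markers summed to 593 RPKM at PA stage 9 against 543 RPKM in the PA oocyte. Late blastula markers summed to 76.7 RPKM at PA stage 12 against 18.9 RPKM at PA stage 9. At PA stage 12 *mixer* had 75.8 RPKM, and each other late blastula marker had 0.526 RPKM or less. Neurula markers summed to 111 RPKM at stage 12 and 97.3 RPKM at stage 30, against 75.7 RPKM at stage 16. None of 6 follicle cell markers reached 1 RPKM in either oocyte library (summed levels 2.35 RPKM in PA and 0.572 RPKM in RZ). The PA stage 9 library stood apart: the larval muscle genes *ckm*, *tnnc2* and *myh4* had 2.61, 2.11 and 1.14 RPKM there, against 0.0927, 0 and 0 RPKM in RZ of the same stage, and at most 0.144 RPKM at PA stage 12. The other early larva markers, *gata1*, *tal1* and *crygb*, had 0, 0.00663 and 0 RPKM in the PA stage 9 library. The part of this library in the results was not tested, and the counts of members that were highest at a stage, embryonic or different at stage 12 are also given without it.

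Of the 60 members, 47 reached 1 RPKM in at least 1 library and 32 reached 5 RPKM. The other 13 stayed under 1 RPKM in all 9 libraries, and of these *fgf23.2* was listed at 0 in all of them. Following the study's filter, a gene counted as maternal when it had at least 1 RPKM in the oocyte, in PA or RZ; 32 members were maternal, beside 62.2% of all genes. A gene counted as embryonic when its PA level at a later stage was at least 1 RPKM and at least 10-fold that of the PA oocyte, which held for 17 members, beside 17.8% of all genes. With 0.5 RPKM added to both levels 7 members met the 10-fold filter, for which no share over all genes was computed. Of all members, 27 were maternal only, 12 embryonic only and 5 both (*dusp5*, *fgfr2*, *fgfr4*, *spred1* and *spry1*), while 16 were neither.

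The classes were counted by role. Of the 16 secreted FGFs only *fgf2* and *fgf9* were maternal, whereas 4 of 5 receptors, 5 of 8 relay inhibitors, 7 of 10 MAP kinase phosphatases and 10 of 13 atypical phosphatases were. The embryonic members were 4 secreted FGFs (*fgf3*, *fgf4*, *fgf8* and *fgf16*), 2 intracellular FGFs, 3 receptors, 3 relay inhibitors, 3 MAP kinase phosphatases, 1 atypical phosphatase and *flrt3*. The first stage at which an embryonic member reached 4-fold its oocyte level and 1 RPKM was stage 9 for 3 members (*fgf8*, *fgfr4* and *spry1*; 7.5% of all embryonic genes). For 8 members it was stage 12 (26.6%), for 2 members stage 16 (40%) and for 4 members stage 30 (24%). These classes go by PA levels alone. In RZ from oocyte to stage 9 *fgfr4* had 58.0, 54.0 and 47.7 RPKM and *spry1* had 4.57, 6.30 and 5.76 RPKM. *fgf8* was found in RZ at stage 9 only. The study cautions that maternal RNAs gaining polyadenylation may look like early transcription in polyA data alone. The part of polyadenylation in these PA levels was not tested. Without the PA stage 9 library 17 members were again embryonic, and 11 of them first reached 4-fold their oocyte level and 1 RPKM at stage 12. In this setting a gene that first reached these levels at stage 9 moves to a later stage. Shares over all genes were not computed for it, so the shares above cannot be set beside these counts.

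**Figure D1:**
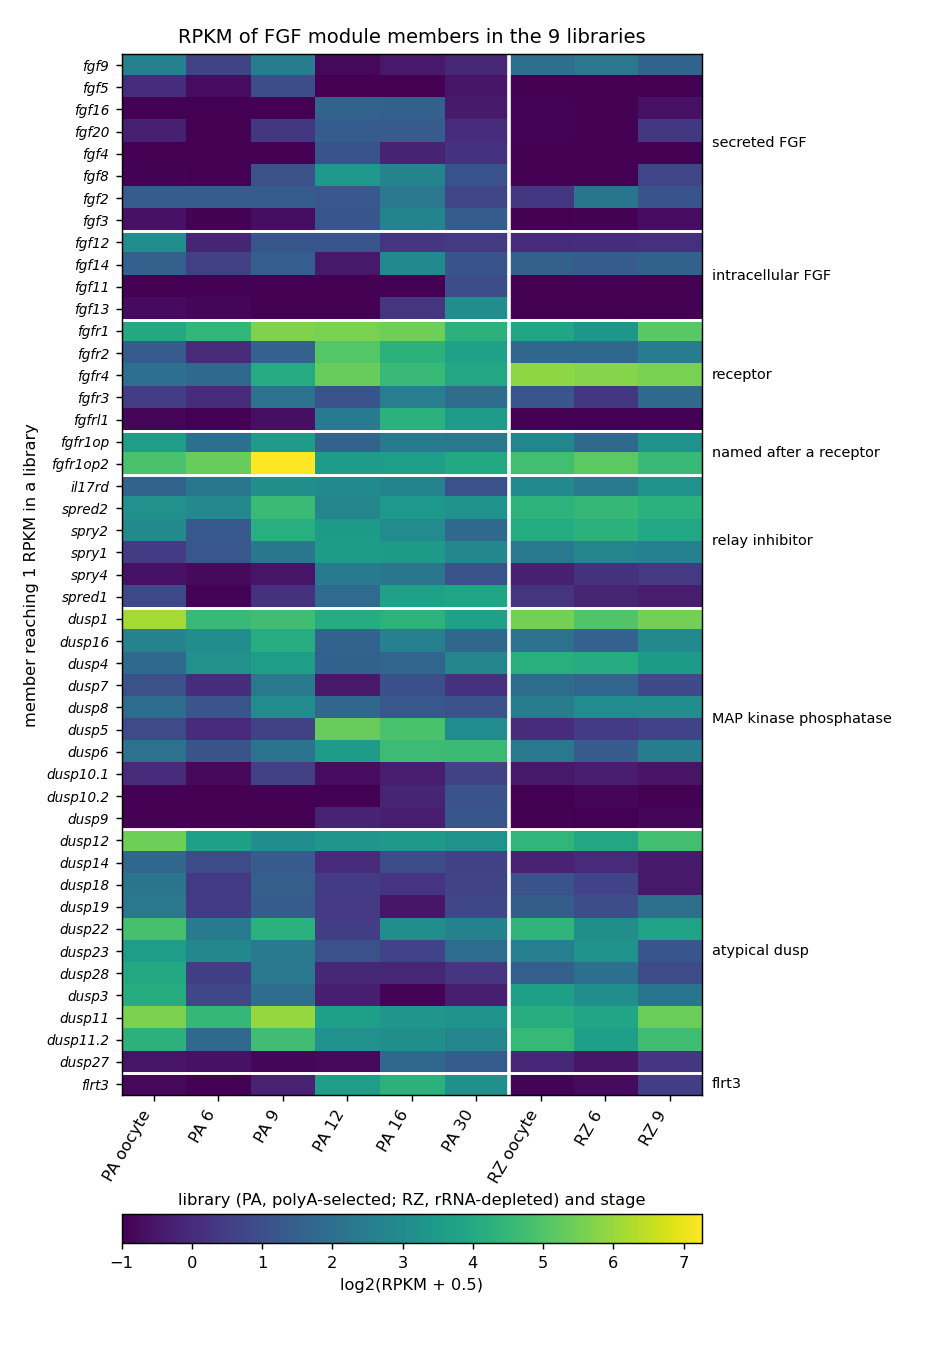
Heat map of log2(RPKM + 0.5) for the 47 members with at least 1 RPKM in a library (rows, grouped by role) in the 6 PA and 3 RZ libraries (columns), 1 library per column. Secreted FGFs are dark in the oocyte and at stage 6 apart from *fgf2* and *fgf9*, and the brightest cell is *fgfr1op2* in the PA stage 9 library at 153 RPKM.

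The stage of the highest PA level also differed between roles. Among the 47 members with at least 1 RPKM in a PA library, 9 were highest at stage 12 (*dusp5*, *fgf4*, *fgf8*, *fgf16*, *fgf20*, *fgfr2*, *fgfr4*, *spry1* and *spry4*), beside 4.49% of all genes. The oocyte held the highest level of 12 members (25.7%), stage 6 of 0 (2.16%), stage 9 of 12 (30.1%), stage 16 of 8 (15.3%) and stage 30 of 6 (22.2%). Of the 12 with their highest level in the oocyte, 8 were atypical phosphatases and none was a receptor or relay inhibitor. Some of these calls rest on small gaps. *fgf16*, *spry1* and *spry4* had 2.59, 11.4 and 4.67 RPKM at stage 12, against 2.38, 10.8 and 4.19 RPKM at stage 16. *fgf20* was also close between these stages. *fgfr1*, highest at stage 9, had 50.8 RPKM there and 48.1 RPKM at stage 12. With 1 library per stage the order of such close levels is unknown. With the PA stage 9 library left out, 12 members were highest at stage 12. With equal medians 14 were. Shares over all genes were not computed for these settings, so the shares above cannot be set beside these counts.

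Of the 8 secreted ligands that reached 1 RPKM, 4 were highest in PA at stage 12 and 2 at stage 16. *fgf8*, a ligand of the early mesoderm and of the midbrain-hindbrain boundary, had 0.0150, 0, 1.58, 10.2, 5.93 and 1.63 RPKM in PA from oocyte to stage 30, against 0, 0 and 1.14 RPKM in RZ from oocyte to stage 9. It was the highest ligand at stage 12, with 47.5% of the summed RPKM of the 16 secreted FGFs, and it was present at stage 9 in both kinds of library. *fgf4*, known in frogs for mesoderm maintenance together with brachyury, was listed at 0 in all PA libraries up to stage 9 and had 1.70, 0.387 and 0.620 RPKM at stages 12, 16 and 30. *fgf16* was likewise listed at 0 in PA up to stage 9 and had 2.59, 2.38 and 0.252 RPKM at stages 12, 16 and 30. *fgf20* had 2.17 RPKM at stage 12 and 2.12 RPKM at stage 16, and 0.755 RPKM or less in every other PA library.

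*fgf3*, a ligand of the posterior mesoderm and hindbrain, also passed 1 RPKM at stage 12 but had its highest PA level later, at stage 16. Its PA levels were 0.160, 0.0117, 0.116, 1.81, 6.19 and 2.17 RPKM from oocyte to stage 30, and at stage 16 it was the highest secreted FGF. On scaffold 4 of the JGI 7.1 assembly *fgf3* (10687938 to 10701835, minus strand) and *fgf4* (10649422 to 10658461, minus strand) are neighbours with 29.5 kb and no other gene start between them. *fgf19*, 44.1 kb beyond *fgf4* on the same strand, was at 0.598 RPKM or less in every library. These 3 adjacent ligand genes thus had different profiles, with highest PA levels at stage 16 for *fgf3* and at stage 12 for *fgf4*.

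The maternal ligands were *fgf9* and *fgf2*. *fgf9*, a ligand best known for its part in gonad and lung development of mammals, had 5.72, 1.12, 5.04, 0.0718, 0.243 and 0.425 RPKM in PA from oocyte to stage 30, and 3.55, 4.40 and 2.65 RPKM in RZ from oocyte to stage 9. It was thus below 0.5 RPKM in all 3 later libraries and above 1 RPKM in all 6 early ones. *fgf2* (basic FGF), which lacks a signal peptide for secretion by the usual route, stayed between 1.14 and 4.34 RPKM in the 6 PA libraries, with its highest level at stage 16. In RZ it had 0.766, 4.17 and 1.71 RPKM from oocyte to stage 9. *fgf5*, in mammals known from the hair cycle, passed 1 RPKM only in the PA stage 9 library (1.43 RPKM) and was listed at 0 in all 3 RZ libraries. The remaining 8 secreted FGFs (*fgf1*, *fgf6*, *fgf7*, *fgf10*, *fgf19*, *fgf22*, *fgf23.1* and *fgf23.2*) stayed under 1 RPKM in all 9 libraries, with *fgf7* the highest of them at 0.885 RPKM at stage 30.

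**Figure D2:**
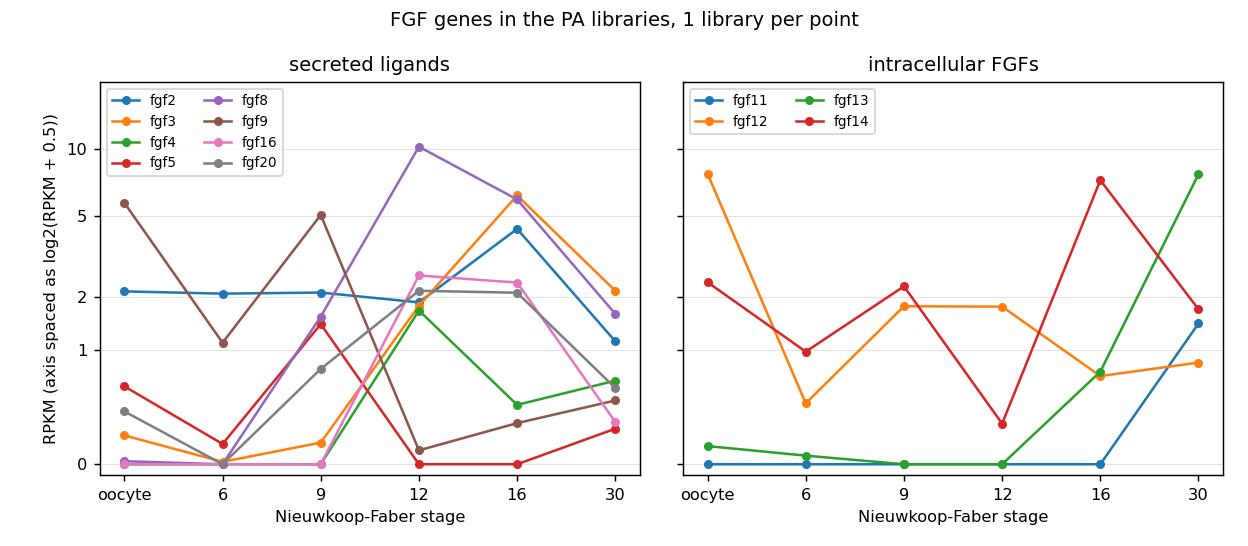
RPKM of the 8 secreted FGFs that reached 1 RPKM (left) and the 4 intracellular FGFs (right) in the 6 PA libraries from oocyte to stage 30, on an axis spaced as log2(RPKM + 0.5); each point is 1 library. *fgf8* is the highest secreted FGF at stage 12 (10.2 RPKM) and *fgf9* is the highest in the oocyte (5.72 RPKM).

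The intracellular FGFs, which bind voltage-gated sodium channels instead of FGF receptors, had a pattern each. *fgf13* was at 0.0957 RPKM or less in PA up to stage 12 and had 0.722 and 7.71 RPKM at stages 16 and 30. *fgf11* was listed at 0 in every library but PA stage 30, where it had 1.44 RPKM. *fgf14* had 2.39, 0.981, 2.28, 0.240, 7.25 and 1.73 RPKM in PA from oocyte to stage 30, and between 2.11 and 2.48 RPKM in the RZ libraries. *fgf12* had 7.74 RPKM in the PA oocyte against 0.501 RPKM in the RZ oocyte, and 1.80 RPKM or less in every other library. The follicle cell markers, low as they were, had their highest early sum in that same PA oocyte library (0.0209 RPKM at PA stage 6, against 2.35 RPKM in the PA oocyte), and their part in the *fgf12* level was not tested.

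Of the 5 receptors 4 were present in the oocyte, and the share of each in their sum differed between stages. *fgfr1*, the main receptor of mesoderm induction in frogs, had 15.3, 21.5, 50.8, 48.1, 42.6 and 19.5 RPKM in PA from oocyte to stage 30, against 13.9, 9.78 and 35.0 RPKM in RZ from oocyte to stage 9. It made up 37.7% of the summed receptor RPKM at stage 12, against 69.7% in the PA oocyte. *fgfr2* had 2.16, 0.516, 2.50, 33.5, 19.2 and 12.8 RPKM in PA from oocyte to stage 30, and 2.85, 2.96 and 4.996 RPKM in RZ from oocyte to stage 9. Its level at stage 12 was 13.4-fold that at stage 9 and 15.6-fold that in the oocyte.

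*fgfr4*, known for roles in muscle precursors and in the liver, differed most between the kinds of library among the 4 maternal receptors. In PA it had 3.55, 3.06, 16.3, 39.7, 23.8 and 14.6 RPKM from oocyte to stage 30. In RZ it had 58.0, 54.0 and 47.7 RPKM from oocyte to stage 9. As shares of different RNA pools, the PA levels of oocyte and stage 6 thus lay far under the RZ levels of the same stages. At stage 9 the gap was smaller. In the oocyte it held 16.1% of the summed receptor RPKM by PA, against 75.8% by RZ, where it was the most abundant receptor.

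*fgfrl1*, a receptor-like protein that binds FGFs without a kinase domain, was near 0 in all early libraries, with 0.0403, 0 and 0.137 RPKM in PA from oocyte to stage 9 and 0.0106 RPKM or less in RZ. At stages 12, 16 and 30 it had 4.63, 18.9 and 11.2 RPKM. *fgfr3* had 0.923, 0.537, 3.85, 1.61, 5.24 and 3.39 RPKM in PA from oocyte to stage 30, the lowest of the 4 kinase receptors at every PA stage after stage 9. The order of the receptors at stage 30 was *fgfr1* (19.5 RPKM), *fgfr4* (14.6), *fgfr2* (12.8), *fgfrl1* (11.2) and *fgfr3* (3.39), and with 1 library the spread between neighbours in this order is unknown.

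**Figure D3:**
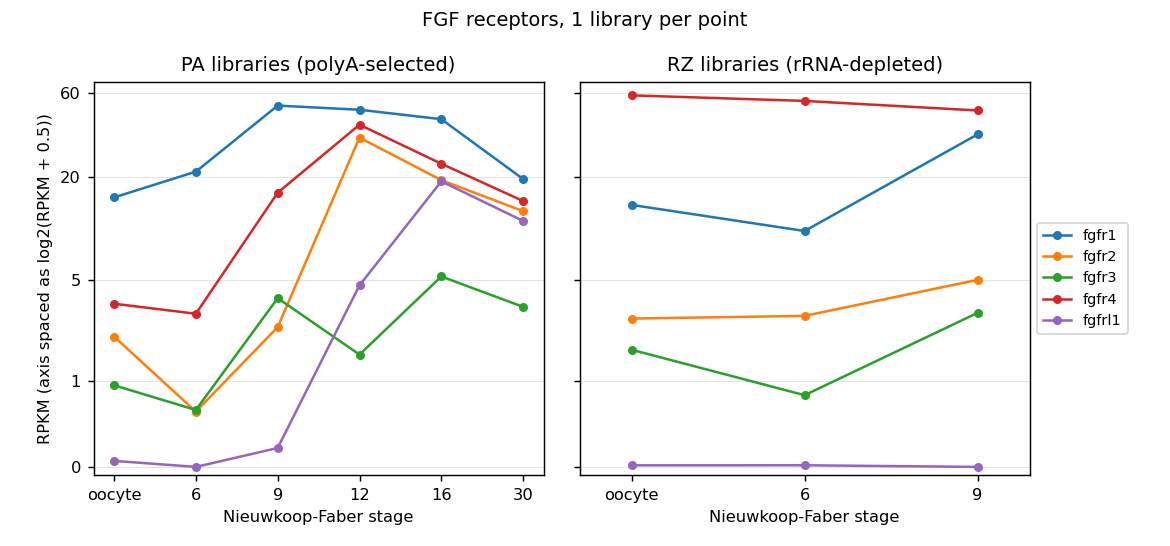
RPKM of the 5 receptors in the 6 PA libraries (left) and 3 RZ libraries (right) by stage, on an axis spaced as log2(RPKM + 0.5); each point is 1 library. *fgfr4* is at 3.55 RPKM in the PA oocyte and 58.0 RPKM in the RZ oocyte, while *fgfr1* is at 15.3 RPKM in PA and 13.9 RPKM in RZ.

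The genes *fgfr1op* and *fgfr1op2* are not receptors: their names come from fusions with *FGFR1* in human blood cancers, and *fgfr1op* encodes a centrosome protein. *fgfr1op2* had 29.0, 40.0, 153, 11.4, 11.8 and 15.8 RPKM in PA from oocyte to stage 30, and 26.7, 35.9 and 23.9 RPKM in RZ from oocyte to stage 9. The high level at PA stage 9 had no counterpart in RZ of that stage. *fgfr1op* stayed between 2.62 and 11.7 RPKM in every library.

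Of the 8 inhibitors of the relay 5 were maternal and 3 embryonic, with *spry1* and *spred1* in both classes and *spry3* and *spred3* in neither. *spry1* and *spry4*, Sprouty proteins that block Ras activation downstream of receptor tyrosine kinases, were highest in PA at stage 12. *spry1* had 0.865, 1.85, 4.27, 11.4, 10.8 and 6.64 RPKM in PA from oocyte to stage 30, against 4.57, 6.30 and 5.76 RPKM in RZ from oocyte to stage 9. *spry4* had 0.166, 0.0720, 0.199, 4.67, 4.19 and 1.63 RPKM in PA from oocyte to stage 30, and 0.806 RPKM or less in RZ. The stage 12 level of *spry4* was 23.5-fold that of stage 9, whereas that of *spry1* was 2.66-fold. The stage 9 level of *spry4* lay under the 0.224 RPKM of 3 reads on 1 kb, so the size of its fold is uncertain. On the log2(RPKM + 0.5) scale the differences were 2.89 for *spry4* and 1.31 for *spry1*. *spry1* was already at 4.57 RPKM or more in every RZ library.

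*spry2* had 7.30, 1.92, 17.5, 10.8, 7.42 and 3.15 RPKM in PA from oocyte to stage 30, and 16.4, 19.4 and 14.5 RPKM in RZ from oocyte to stage 9. *spred2*, which keeps Raf from being activated by Ras, had 8.54, 6.83, 24.3, 6.28, 10.1 and 9.06 RPKM in PA from oocyte to stage 30, and 19.7, 22.1 and 19.0 RPKM in RZ from oocyte to stage 9. Both were thus steady in RZ across the early stages while their PA levels varied, as did the PA library medians. From stage 6 to stage 9 in PA *spry2* and *spred2* differed by 2.89 and 1.76 on the log2(RPKM + 0.5) scale, beside a median of 1.36 for all genes. With equal medians they differed by 1.65 and 0.44. *il17rd* (Sef), a membrane inhibitor of FGF signalling first found by its expression along with *fgf8* in fish, had 2.63, 4.21, 8.02, 7.03, 6.00 and 1.64 RPKM in PA from oocyte to stage 30. *spred1* was the late member of the group, with 1.28, 0.0272, 0.636, 3.21, 12.7 and 13.9 RPKM in PA from oocyte to stage 30. *spry3* and *spred3* stayed under 1 RPKM in all libraries, at 0.326 and 0.633 RPKM or less.

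*flrt3*, a membrane protein that binds FGF receptors and strengthens their signal in frog embryos, had 0.0640, 0.00853, 0.343, 12.0, 19.2 and 8.27 RPKM in PA from oocyte to stage 30. In RZ it had 0.0343, 0.0925 and 0.901 RPKM from oocyte to stage 9. It was therefore above 8 RPKM in all 3 later libraries and below 1 RPKM in all 6 early ones. *etv4*, an ETS transcription factor that is a widely used FGF target in other vertebrates, was at 0.344 RPKM or less in every library.

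Among the phosphatases that act on MAP kinases, *dusp5* and *dusp6* had their own highest PA levels at stages 12 and 16, and *dusp1* in the oocyte. *dusp5*, a nuclear phosphatase of ERK, had 1.35, 0.503, 1.04, 39.7, 29.3 and 7.36 RPKM in PA from oocyte to stage 30, against 0.530, 0.878 and 1.08 RPKM in RZ from oocyte to stage 9. Its stage 12 level was 38.3-fold that of stage 9, and it then held 52% of the summed RPKM of the 10 MAP kinase phosphatases. *dusp6*, the cytoplasmic ERK phosphatase, had 3.79, 1.64, 3.89, 11.3, 24.9 and 24.2 RPKM in PA from oocyte to stage 30, and 4.52, 2.08 and 4.98 RPKM in RZ from oocyte to stage 9. *dusp6* thus continued at its highest levels at stages 16 and 30, where *dusp5* was lower than at stage 12.

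*dusp1*, a stress-induced phosphatase with a preference for p38 and JNK, was the most abundant maternal member of this group. It had 70.4, 23.0, 25.8, 16.8, 19.6 and 12.6 RPKM in PA from oocyte to stage 30, and 46.3, 32.1 and 46.1 RPKM in RZ from oocyte to stage 9. *dusp4*, *dusp7*, *dusp8* and *dusp16* were each highest in PA at stage 9. They had 2.44, 0.245, 2.93 and 2.50 RPKM at PA stage 12, against 12.0, 4.43, 7.44 and 17.1 RPKM at PA stage 9. In RZ at stage 9 they were at 10.8, 1.25, 7.76 and 6.83 RPKM. *dusp9*, *dusp10.1* and *dusp10.2* reached 1.83, 1.02 and 1.65 RPKM at stage 30 and were under 1 RPKM elsewhere. *dusp10.1* had nearly the same level at PA stage 9, 0.991 RPKM, where *dusp9* and *dusp10.2* were listed at 0.

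**Figure D4:**
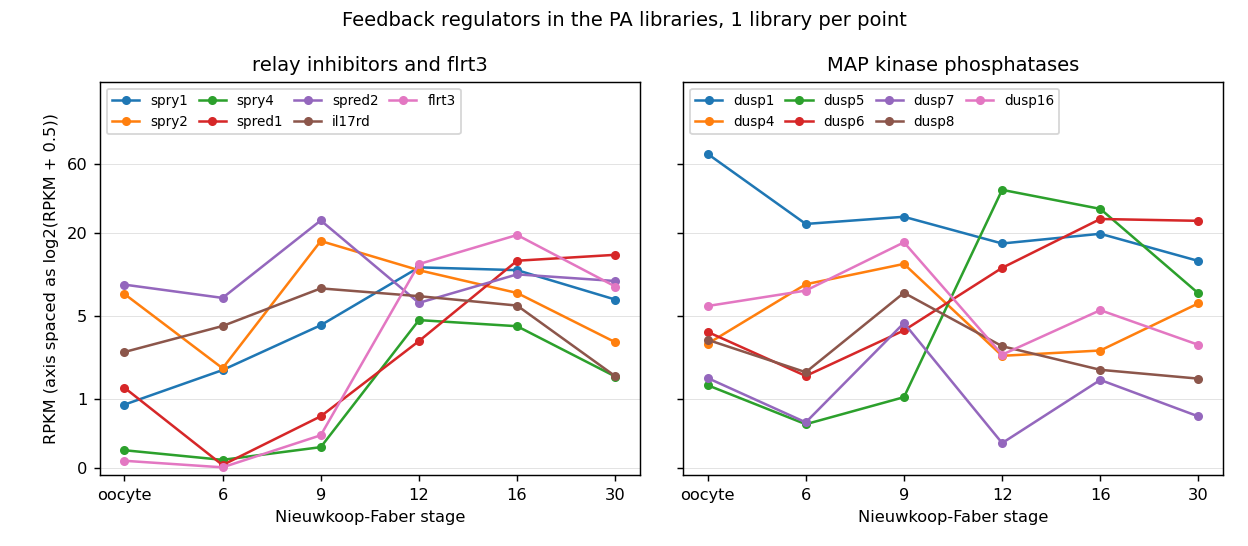
RPKM of 6 relay inhibitors and *flrt3* (left) and of 7 MAP kinase phosphatases (right) in the 6 PA libraries from oocyte to stage 30, on an axis spaced as log2(RPKM + 0.5); each point is 1 library. *dusp5* is at 39.7 RPKM at stage 12, against 1.04 RPKM at stage 9, while *dusp1* has its highest level, 70.4 RPKM, in the oocyte.

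The atypical dual-specificity phosphatases lack the MAP kinase binding domain, and most are not known as regulators of FGF signalling. Of the 13 in this group, 10 were maternal, beside 62.2% of all genes. Their summed RPKM in PA was 195, 54.9, 134, 36.2, 42.4 and 39.7 from oocyte to stage 30. In RZ it was 107, 73.2 and 120 from oocyte to stage 9. The PA library medians were likewise higher in the oocyte and at stage 9 than at the other stages. *dusp3* (VHR) had 16.7, 1.21, 3.39, 0.308, 0.0234 and 0.314 RPKM in PA from oocyte to stage 30, against 12.3, 7.89 and 4.14 RPKM in RZ from oocyte to stage 9. *dusp11*, an RNA phosphatase, had the highest level of the group in the PA oocyte and at PA stage 9, with 49.3 and 61.3 RPKM. *dusp22*, a phosphatase of the JNK pathway, had 28.6, 4.94, 19.1, 0.912, 7.73 and 5.65 RPKM in PA from oocyte to stage 30. *dusp27* was the only embryonic member of the group and first passed 1 RPKM at stage 16 (2.98 RPKM). *dusp13* and *dusp26* stayed at 0.131 and 0.214 RPKM or less in all libraries.

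Changes between consecutive libraries were read on the log2(RPKM + 0.5) scale, which understates changes of low genes, and a gene was called when it differed by at least 2 on that scale (4-fold) among genes with 1 RPKM or more in either library. Between oocyte and stage 6 in PA, 31 members could be compared. None was higher at stage 6 (0.882% of all genes) and 5 were lower (25.8%): *dusp3*, *dusp11.2*, *dusp22*, *dusp28* and *fgf12*. The median difference of members was -1.01, beside -1.27 for all genes. With equal medians it was -0.0515, and 1 member was higher (5.98% of all genes) and 3 were lower (5.91%). In RZ over the same interval 28 members could be compared, none was higher (0.163%) or lower (0.761%), and their median difference was -0.23, beside -0.39 for all genes.

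Between stage 6 and stage 9 in PA, 6 of 33 members were higher at stage 9 (*dusp7*, *dusp11.2*, *fgf8*, *fgfr3*, *fgfr4* and *spry2*), beside 22.8% of all genes, and none was lower (0.287%). The median difference of members, 1.35, was close to that of all genes, 1.36. With equal medians no member was called higher (2.32% of all genes). In RZ, 0 of 30 members were higher at stage 9 (5.98%) and 1 was lower, *dusp23* (0.547%), with a median difference of 0.19 for members and 0.46 for all genes.

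Between stage 9 and stage 12 in PA, of 41 members 8 were higher at stage 12 (*dusp5*, *fgf4*, *fgf8*, *fgf16*, *fgfr2*, *fgfrl1*, *flrt3* and *spry4*), beside 7.08% of all genes, and 9 were lower (28.1%): *dusp3*, *dusp4*, *dusp7*, *dusp11*, *dusp16*, *dusp22*, *dusp28*, *fgf9* and *fgfr1op2*. The median difference was 1.496 for 8 secreted FGFs, 1.26 for 5 receptors, 0.57 for 6 relay inhibitors, -1.21 for 7 MAP kinase phosphatases and -1.47 for 10 atypical phosphatases, beside -0.66 for all members and -1.23 for all genes. The phosphatases thus lay near the median of all genes. With equal medians these medians were 2.28 for secreted FGFs, 2.61 for receptors, 1.85 for relay inhibitors, 0.0344 for MAP kinase phosphatases and -0.34 for atypical phosphatases, beside 0.74 for all members and 0.0762 for all genes. On that scale 14 members were higher at stage 12 (14.4% of all genes), which added *dusp6*, *fgf3*, *fgf20*, *fgfr4*, *spred1* and *spry1*, and 3 were lower (7.03%): *dusp22*, *fgf9* and *fgfr1op2*.

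Setting stage 12 against stage 6, which leaves out the PA stage 9 library, gave 15 of 35 members higher at stage 12 (13.5% of all genes) and none lower (6.11%). The median difference was then 1.14 for members and 0.13 for all genes. The 15 were the 14 genes called with equal medians and *spry2*. By that comparison *dusp5*, *fgfr2*, *flrt3* and *fgf8* differed most, by 5.32, 5.07, 4.62 and 4.42 on the log2 scale. Of the 9 members lower at stage 12 than at stage 9, 7 could be compared with stage 6, and 0 of these were lower by 4-fold. All 7 were still lower at stage 12 than at stage 6, by differences between -0.84 (*dusp11*) and -1.95 (*dusp22*).

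The steps after the gastrula stage were counted in the same way. Between stages 12 and 16, 3 of 36 members were higher at stage 16 (*dusp22*, *dusp27* and *fgf14*), beside 11.1% of all genes, and none was lower (1.14%). Between stages 16 and 30, 1 of 41 members was higher at stage 30, *fgf13* (6.12%), and none was lower (3.02%). The median differences of members were 0.05 and -0.42 in these steps, beside 0.43 and 0.17 for all genes. The counts depended on the pseudocount. With 0.1 RPKM added instead of 0.5 RPKM, 5 members were higher at stage 16, and 4 were higher and 2 lower at stage 30. Shares over all genes were not computed for that setting. The secreted FGFs added up to 21.5, 23.6 and 9.72 RPKM at stages 12, 16 and 30.

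The ratio of PA to RZ at a stage compares a gene's share of polyadenylated RNA with its share of total RNA. The study used log2 PA/RZ as a relative measure of polyadenylation, and maternal genes at -0.5 or lower are called RZ-enriched here. In the oocyte 9 of the 32 maternal members were RZ-enriched, beside 28.1% of all maternal genes with a ratio. By role these were 4 of 5 relay inhibitors (*il17rd*, *spred2*, *spry1* and *spry2*), 2 of 4 receptors (*fgfr3* and *fgfr4*) and 3 of 7 MAP kinase phosphatases (*dusp4*, *dusp7* and *dusp8*). No atypical phosphatase and no ligand was among them. At the opposite cut, a log2 PA/RZ of 0.5 or higher, stood 15 members (43.8% of maternal genes), of which 7 were atypical phosphatases. The median log2 PA/RZ in the oocyte was -1.20 for the 5 relay inhibitors and 1.03 for the 10 atypical phosphatases, beside 0.46 for all 32 members and 0.29 for all maternal genes.

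*fgfr4* was at the RZ end of the whole table. Its log2 PA/RZ was -4.03 (oocyte), -4.14 (stage 6) and -1.55 (stage 9), and 0.326%, 0.718% and 1.99% of maternal genes had a lower ratio at these points. In the oocyte its RPKM in RZ was 16.3-fold that in PA, beside a median log2 PA/RZ of 0.29 for all maternal genes. *dusp4* and *spry1* had the next lowest ratios among the members in the oocyte. From oocyte to stage 9 the ratio was -2.52, -0.99 and 0.15 for *dusp4*, and -2.40, -1.76 and -0.43 for *spry1*. For these 3 genes the ratio was thus lowest before the late blastula, while their RZ levels at stage 9 were 47.7, 10.8 and 5.76 RPKM.

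At the other end, *fgf12* had a log2 PA/RZ of 3.95 in the oocyte, above 99.4% of maternal genes, and *dusp14* and *dusp28* had 2.95 and 2.75. At stage 6, 18 members were RZ-enriched (54.1% of maternal genes) and 4 were at 0.5 or higher (17.7%), and the median of members was -0.79, beside -0.63 for all maternal genes. Of the 18, 9 had at least 5 RPKM in PA or RZ. All 5 relay inhibitors were below 0 at stage 6, as were 26 of 32 members and 6662 of 9470 maternal genes. Among the relay inhibitors *spred1* was at -3.89 and *spry2* at -3.34. The *spred1* ratio rests on 0.403 RPKM in RZ and 0.0272 RPKM in PA, under the 0.0674 RPKM of 3 reads on 1 kb there. *spry2* had 1.92 RPKM in PA and 19.4 RPKM in RZ. By contrast, the ratio of *fgfr1* was 1.14, above 91.7% of maternal genes. As shares of different RNA pools, the RZ level of *spry2* was 10.1-fold its PA level at this stage. *fgfr1* and *fgfr4* thus lay at opposite ends at stage 6, with 21.5 and 3.06 RPKM in PA against 9.78 and 54.0 RPKM in RZ.

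At stage 9, 13 members were at 0.5 or higher (38.5% of maternal genes) and 5 were RZ-enriched (21.2%): *dusp1*, *dusp12*, *dusp19*, *fgfr2* and *fgfr4*. The 5 relay inhibitors were above -0.5, and their median was 0.26, beside 0.22 for all maternal genes. With the ratio centred on the median of maternal genes 8 members were RZ-enriched, among them the relay inhibitor *spry1* at -0.66. The share over all maternal genes was not computed for the centred ratio, so 21.2% cannot be set beside this count. *dusp12* had 7.83 RPKM in PA against 26.8 RPKM in RZ, a log2 ratio of -1.78. *fgfr1op2* and *dusp18* had the ratios 2.68 and 3.26. *fgfr2* and *fgfr4*, both RZ-enriched at stages 6 and 9, were also among the genes highest at stage 12 in PA.

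**Figure D5:**
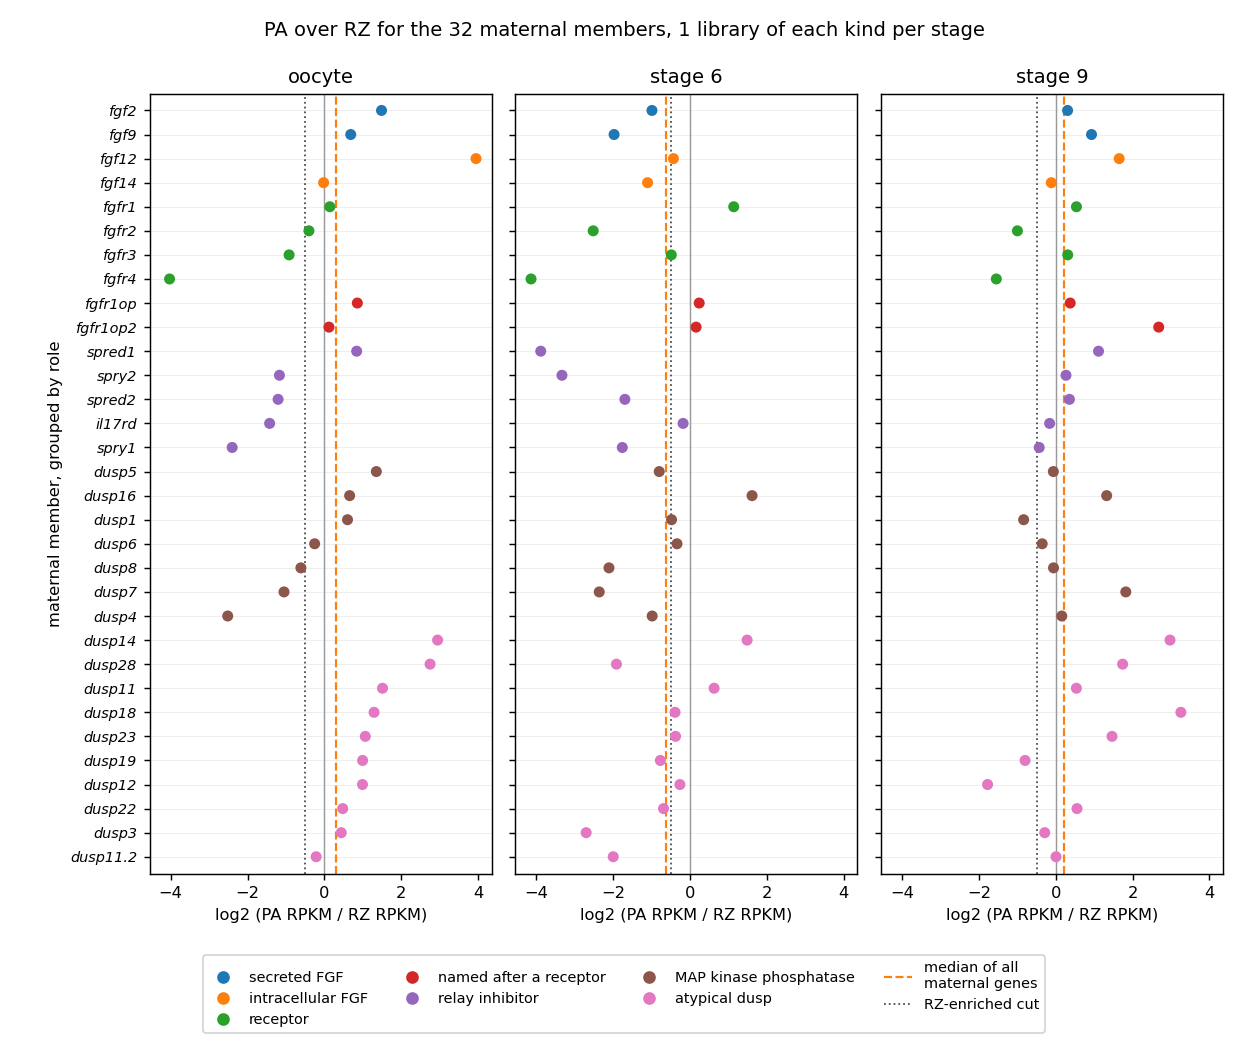
log2 of PA RPKM over RZ RPKM for the 32 maternal members (rows, coloured by role) in the oocyte and at stages 6 and 9, 1 library of each kind per stage; the dashed line is the median of all maternal genes (0.29, -0.63 and 0.22) and the dotted line the value of -0.5 at or below which a gene is called RZ-enriched. The 5 relay inhibitors lie between -2.40 and 0.84 in the oocyte and between -3.89 and -0.18 at stage 6. The value of -3.89 is that of *spred1*, whose PA level at stage 6 was under that of 3 reads on 1 kb.

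Some members are neighbours on the assembly. *fgf2* (scaffold 1, 159009594 to 159039284) and *spry1* (159305995 to 159311094) lie 267 kb apart on the plus strand with 2 gene starts between them, and were highest in PA at stages 16 and 12. *fgf1* (scaffold 3, 66952332 to 66960065) and *spry4* (67120123 to 67128493) are separated by 160 kb without another gene start, and *fgf1* stayed at 0.123 RPKM or less while *spry4* reached 4.67 RPKM. *dusp3* and *etv4* lie 67.3 kb apart on scaffold 7 and were at 16.7 and 0.0634 RPKM in the PA oocyte. Positions are those of the table on JGI 7.1.

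Other genes of the pathway were read from lists made from textbook knowledge, with earlier results of these data known. Of 28 genes of the relay from adaptor to ERK, 26 were in the table and 24 could be compared between stages 9 and 12 in PA: none was higher at stage 12 (7.08% of all genes) and 12 were lower (28.1%), with a median difference of -1.88, beside -1.23 for all genes. With equal medians 2 were higher (*grb2* and *hras*; 14.4% of all genes) and 1 was lower (*sos1*; 7.03%). Against stage 6 none was higher (13.5%) and 1 was lower (*araf*; 6.11%). The shares of all genes in each setting also apply to the lists that follow. Of 21 coreceptor and heparan sulfate genes, 15 could be compared, and 1 was higher (*klb*) and 3 were lower (*hs2st1*, *hs6st1* and *sdc1*), with a median of -0.76. With equal medians 2 were higher (*klb* and *sdc4*) and none was lower, and against stage 6, where 12 could be compared, 3 were higher (*klb*, *sdc2* and *sdc4*) and none was lower. *klb*, beta-Klotho, the coreceptor of endocrine FGFs, had 3.56 RPKM at stage 12 against 0.365 RPKM at stage 9. Of 11 known FGF targets outside the rule 10 were in the table, and 7 were higher at stage 12 (*cdx1*, *cdx2*, *cdx4*, *junb*, *myod1*, *t* and *wnt8a*) and 1 was lower (*fos*), with a median of 3.27. With equal medians the counts were again 7 and 1, and against stage 6, with *etv1* added, 8 were higher and 1 was lower. *t* (brachyury), the mesodermal transcription factor, had 63.7 RPKM at stage 12 against 0.366 RPKM at stage 9. Between stages 16 and 30, 9 of the 10 targets were lower at stage 30, as were 30 of 41 members and 5044 of 11541 genes compared. Of the targets, 6 were lower by 4-fold or more (3.02% of all genes). Among these *cdx4* had 3.38 RPKM at stage 30 against 41.3 RPKM at stage 16.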

How the data were processed

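The authors had deposited a table of RPKM values per gene for 9 libraries of *Xenopus tropicalis*. Reads were aligned with BWA (version 0.6.1 in the submitters' processing notes) to the JGI 7.1 assembly, reads that mapped to several places were left out, and the RPKM of a gene, with Xenbase gene models, is the mean over all its non-redundant exons. No other scaling between libraries was made. All sample names stand in 1 header field, and their order was checked against a sheet with named columns, which matched in 87 of 87 rows.

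The number of mapped reads in a library was worked out from 518 single-exon genes, whose reads come out whole. No member is among them, so counting intervals of members are unknown, and the level of 3 reads on 1 kb stands in for a floor. It covers counting error only.

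Groups came from the sample labels. With 1 library per condition no test was run. Differences are of log2(RPKM + 0.5) among genes with at least 1 RPKM in either library, and were called at 2 or more; log2 PA/RZ used no pseudocount. Shares of all genes were computed over the same table. The code that makes the calls was checked on simulated data, where it recovered the changes these were made with. The analysis used Python 3.11.15 with pandas 2.3.3 and numpy 2.4.6. Every member could be named, and members with at least 5 RPKM in a library were given with values, apart from *dusp11.2* and *dusp23*, which were only named. The rule for members goes by gene name alone, but this set of genes and the lists were settled on with earlier results of these data known. Names of 59 of the 60 members match RefSeq symbols. Alternatives were other pseudocounts, filters and thresholds, equal library medians and a ratio centred on its median. No sequences are shown.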

Additional observations from a re-analysis of the deposited data

Results flagged for a closer look

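Over the interval from stage 6 to stage 9, 2 atypical phosphatases differed by at least 2-fold in opposite directions in the PA and RZ libraries; the difference between the kinds of library was not tested. On the log2(RPKM + 0.5) scale *dusp18* was higher at stage 9 by 1.10 in PA and lower by a difference of -1.08 in RZ (2.31 RPKM at stage 9 against 0.814 RPKM at stage 6 in PA; 0.242 RPKM at stage 9 against 1.07 RPKM at stage 6 in RZ). *dusp28* was higher at stage 9 by 1.79 in PA and lower by a difference of -1.15 in RZ (4.49 RPKM at stage 9 against 0.948 RPKM at stage 6 in PA; 1.34 RPKM at stage 9 against 3.58 RPKM at stage 6 in RZ). For comparison, 3 reads on 1 kb are 0.126 RPKM at RZ stage 9.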

How the results depend on the processing

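Of 113 values from other settings for 35 results, 83 left counts within 1.5 times and medians within a factor of 1.5. Equal library medians changed most. Stage 6 over oocyte in PA then had 1 member higher (5.98% of all genes), 3 lower (5.91%) and a median of -0.0515. Stage 9 over stage 6 had 0 higher (2.32%) and a median of 0.0893. Stage 12 over stage 9 had 14 higher (14.4%), 3 lower (7.03%) and a median of 0.74, which reversed its sign. Stage 30 over stage 16 had 2 higher (6.26%) and 2 lower (3.56%). RZ stage 6 over oocyte had 1 higher (0.242%). In this setting 4 members were highest at stage 6, 5 at stage 9 and 14 at stage 12, without a share over all genes. A pseudocount of 0.1 RPKM gave 9 members lower at PA stage 6 than in the oocyte, 11 higher at stage 9 than at stage 6, 5 higher at stage 16 than at stage 12, 4 higher and 2 lower at stage 30 than at stage 16, and in RZ 1 higher at stage 6 and 1 higher at stage 9. A pseudocount of 1 RPKM gave 3 higher at PA stage 9 than at stage 6 and 0 lower at RZ stage 9. For these pseudocounts no share over all genes was computed. Without a filter on low RPKM the median was -0.34 for PA stage 6 over oocyte and -0.0408 for stage 12 over stage 9. With a pseudocount of 0.5 RPKM in the 10-fold filter 7 members were embryonic. Centring PA/RZ on all maternal genes gave a median of -0.16 at stage 6 and 8 RZ-enriched members at stage 9. Asking for 5 RPKM gave 9 at stage 6 and 3 at stage 9. Shares over all maternal genes were not computed for these settings. An analysis leaving out the PA stage 9 library was chosen after seeing the data. Against stage 6 it gave 15 members higher (13.5% of all genes) and 0 lower (6.11%) at stage 12. It also gave 3 highest at stage 6 and 17 embryonic members, without a share over all genes. No paired analysis was possible because each condition is 1 library. Depth limits low members: 3 reads on 1 kb are 0.224 RPKM at PA stage 9.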
